A study of Homo sapiens with 2 samples.

Results

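The genes described here are antisense noncoding genes, those whose symbol ends in -AS1, that were expressed in Huh7 cells transfected with either a negative-control siRNA (Huh7-NC) or one directed at BRF2 (Huh7-si). They were chosen by the sum of their estimated reads over both libraries, which had to reach 100, with 1 gene left out under the rule. Of 61541 genes in the table, 1457 carried a symbol ending in -AS1, 648 of these had no read in either library, and 158 (10.8%) passed. Because the sum holds the reads of both conditions, the level of these genes is what selected them, and their counts and medians are given as a description.

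Huh7 is an immortalised human line of hepatocyte-like liver cancer cells. BRF2 is the TFIIB-related factor that brings RNA polymerase III to the promoters of the U6 and 7SK type, whose elements lie upstream of the transcribed part. Each condition was sequenced as 1 library from total RNA, so no spread between replicates exists and no test of the condition could be made. The labels do not say which of the study's siRNAs went into the sequenced cells.

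A gene named X-AS1 is transcribed from the DNA strand opposite to gene X, its sense gene. Many such RNAs start close to the sense promoter and run away from it, so that a single CpG-rich region serves both directions (head-to-head pairs), whereas others begin inside or beyond the sense gene and run across its exons. Antisense RNAs have been described as scaffolds for chromatin regulators, as competitors of sense transcription, as partners that mask or stabilise the sense mRNA, and as by-products of open promoters that the nuclear exosome degrades. The genes are RNA polymerase II transcripts and are not among the small RNA genes known to use BRF2.

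The DNA just upstream of the transcribed part is shown for 6 of the 158 genes, because the results below turn on them. They are the RefSeq promoters on GRCh38.p14, from 250 bases before to 50 bases after the start, written 5′ to 3′ on the strand of the antisense gene. Capitals mark the 4 motifs searched on both strands, namely GGGCGG (the GC box of SP factors), CCGGAA (the core of ETS factors), CCAAT and TATAAA, where adjoining or overlapping matches run together. UGDH-AS1 lies on the plus strand at chr4:39527589-39527888, CCDC18-AS1 on the minus strand at chr1:93345762-93346061, MMP25-AS1 on the minus strand at chr16:3059321-3059620 and ZNF528-AS1 on the minus strand at chr19:52397708-52398007. All of these were at least 2-fold higher in Huh7-si. CCDC183-AS1, the antisense gene with the highest fold, lies on the minus strand at chr9:136808799-136809098, and PXN-AS1, which was lower in Huh7-si, on the plus strand at chr12:120201041-120201340.
UGDH-AS1: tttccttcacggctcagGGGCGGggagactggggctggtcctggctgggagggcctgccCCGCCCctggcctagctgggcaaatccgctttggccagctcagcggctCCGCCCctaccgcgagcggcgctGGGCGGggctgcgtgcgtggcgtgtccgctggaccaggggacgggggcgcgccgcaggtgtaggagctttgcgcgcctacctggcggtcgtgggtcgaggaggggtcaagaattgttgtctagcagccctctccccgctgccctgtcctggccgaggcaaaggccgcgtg
CCDC18-AS1: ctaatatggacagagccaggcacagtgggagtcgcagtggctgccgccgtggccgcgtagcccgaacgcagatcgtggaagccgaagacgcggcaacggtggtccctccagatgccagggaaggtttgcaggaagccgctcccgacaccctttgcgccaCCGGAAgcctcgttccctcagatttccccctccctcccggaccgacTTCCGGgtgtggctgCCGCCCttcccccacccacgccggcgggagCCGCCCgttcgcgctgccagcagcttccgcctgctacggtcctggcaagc
MMP25-AS1: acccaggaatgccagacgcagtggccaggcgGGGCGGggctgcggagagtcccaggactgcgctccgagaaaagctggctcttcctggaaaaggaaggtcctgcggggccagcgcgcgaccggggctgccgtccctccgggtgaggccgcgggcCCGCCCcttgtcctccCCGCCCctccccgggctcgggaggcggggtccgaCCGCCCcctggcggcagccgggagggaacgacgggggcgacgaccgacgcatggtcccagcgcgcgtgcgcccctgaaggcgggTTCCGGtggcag
ZNF528-AS1: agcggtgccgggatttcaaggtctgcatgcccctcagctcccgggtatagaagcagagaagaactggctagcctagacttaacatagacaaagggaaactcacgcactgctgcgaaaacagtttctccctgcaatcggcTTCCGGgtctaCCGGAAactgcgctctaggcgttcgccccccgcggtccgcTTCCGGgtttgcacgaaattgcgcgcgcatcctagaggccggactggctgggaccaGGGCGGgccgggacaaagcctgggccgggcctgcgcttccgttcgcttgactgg
CCDC183-AS1: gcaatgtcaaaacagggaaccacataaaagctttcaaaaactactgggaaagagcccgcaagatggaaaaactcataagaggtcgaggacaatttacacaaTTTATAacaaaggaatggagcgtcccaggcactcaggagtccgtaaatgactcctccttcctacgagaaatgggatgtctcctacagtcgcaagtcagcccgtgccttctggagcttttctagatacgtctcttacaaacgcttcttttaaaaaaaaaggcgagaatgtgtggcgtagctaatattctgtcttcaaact
PXN-AS1: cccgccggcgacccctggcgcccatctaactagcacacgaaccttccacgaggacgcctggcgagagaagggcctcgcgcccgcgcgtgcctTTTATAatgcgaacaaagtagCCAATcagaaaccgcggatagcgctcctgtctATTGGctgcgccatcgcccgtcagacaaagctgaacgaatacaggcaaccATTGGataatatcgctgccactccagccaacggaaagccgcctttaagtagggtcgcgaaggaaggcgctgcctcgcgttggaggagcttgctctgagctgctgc
The first 4 sequences hold GC boxes or ETS cores, whereas CCDC183-AS1 holds a single TATAAA match and PXN-AS1 holds CCAAT and TATAAA matches and neither a GC box nor an ETS core. These differences do not follow the direction of change: GABPB1-AS1, C1RL-AS1 and SLC25A25-AS1, all at least 2-fold higher, have 0 GC boxes and 0 ETS cores in this window, and the lower gene SNAI3-AS1 has 1 GC box. A match is a description of these letters and no evidence of binding.

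The libraries held 22852648 (Huh7-NC) and 22089016 (Huh7-si) estimated reads. BRF2, the siRNA target, had 1281 estimated reads in the control library and 364 in the other, for a log2 change of -1.77 (95% counting interval -1.94 to -1.60). Hepatocyte markers were found in both libraries, with ALB at 3957 and 4077 TPM and AFP at 3391 and 4014 TPM, in the order Huh7-NC and Huh7-si here and below. SERPINA1 had 2938 and 2972 TPM, APOA1 1195 and 755, TTR 452 and 424 and HNF4A 96.6 and 107. By CPM the log2 changes were 0.24 for AFP, -0.06 for HNF4A, -0.11 for ALB, -0.15 for SERPINA1, -0.24 for TTR and -0.83 for APOA1. Of the defining markers of other liver cells, the stromal gene DCN was at 0 reads in both libraries, the leukocyte gene PTPRC at 5 and 1 and the endothelial gene VWF at 1 and 3. Reads were found for the endothelial gene PECAM1 (60 and 63), the macrophage gene CD68 (235 and 244) and the collagen genes COL1A1 (76 and 229) and COL3A1 (19 and 44). CPM are reads scaled to a library total of 1000000, TPM are the authors' transcript abundances scaled for gene length and depth, and every fold (on the log2 scale, the log2 change or log2 fold change) is the ratio of CPM in Huh7-si to that in Huh7-NC. Intervals are 95% exact binomial intervals on the reads of the pair of libraries and cover counting error alone. A count of 0 would allow up to 3 reads, or 0.131 and 0.136 CPM.

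More of the antisense genes were higher than lower in Huh7-si. The 158 genes held 27774 reads in the control library and 35449 in the other, which is 0.1215% and 0.1605% of all reads, and 1155 and 1433 when their TPM were summed. The median level was 3.63 TPM in Huh7-NC and 5.71 TPM in Huh7-si. The median log2 fold change was 0.35 with a range from -1.07 to 2.43, whereas all 12978 genes with at least 100 reads had a median of 0.14. Of the 158 genes, 126 (79.7%) had a log2 fold change above 0, compared with 61.6% of all genes.

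A 2-fold higher level in Huh7-si was seen for 27 of the antisense genes (17.1%), whereas 7.45% of all genes reached that fold. A 2-fold lower level was seen for 1, CERS6-AS1, against 0.393% of all genes. The counting interval lay wholly above no change for 88 antisense genes (55.7%, with 45.9% of all genes), wholly below it for 4 (2.5%, with 26.1% of all genes) and spanned it for 66. Genes with few reads have wide intervals, so that intervals span no change more often among weak genes. In a bulk sample, fewer cells with a transcript and less of it per cell cannot be told apart. Scaling moves these values together: TMM, the median of ratios and the upper quartile shift every log2 fold change by -0.22, -0.21 and -0.19, and 21 of the genes stay at least 2-fold higher under each. The share of all genes at that fold moves with the same shifts and is not given.

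The share at 2-fold depended on how many reads a gene had. Among the 40 antisense genes with the fewest reads (102 to 162 over both libraries), 9 (22.5%) were at least 2-fold higher, and 22.1% of all genes in that range of reads were too. In the next ranges (164 to 243 and 245 to 480 reads) the shares were 17.9% against 17.0%, then 17.9% against 12%. Among the 40 with the most reads (484 to 4678) it was 4 genes, 10%, against 5.2%. The median log2 fold change of the antisense genes exceeded that of all genes in every range, with 0.60 against 0.39, 0.61 against 0.36, 0.43 against 0.30 and 0.22 against 0.12. Thus the share in the lower ranges of reads was near the background, and the medians differed throughout.

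The threshold itself also admits genes through the library in which they are high. There were 20 genes under 50 reads in Huh7-NC and 1 under 50 reads in Huh7-si, and 12 of the 27 with the 2-fold difference were among the 20. With at least 50 reads asked of each library, 137 antisense genes were left, 15 of them (10.9%) at least 2-fold higher and with a median of 0.26, whereas all 12512 genes treated in the same way gave 5.8% and 0.12. Just inside the threshold lay VASH1-AS1 with 102.15 reads and a log2 change of 0.66 and MORC2-AS1 with 102.65 reads and -0.53. Just outside lay SLC16A1-AS1 with 99.9 reads and 0.87 and LGALS8-AS1 with 98.31 reads and 1.02.

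**Figure D1:**
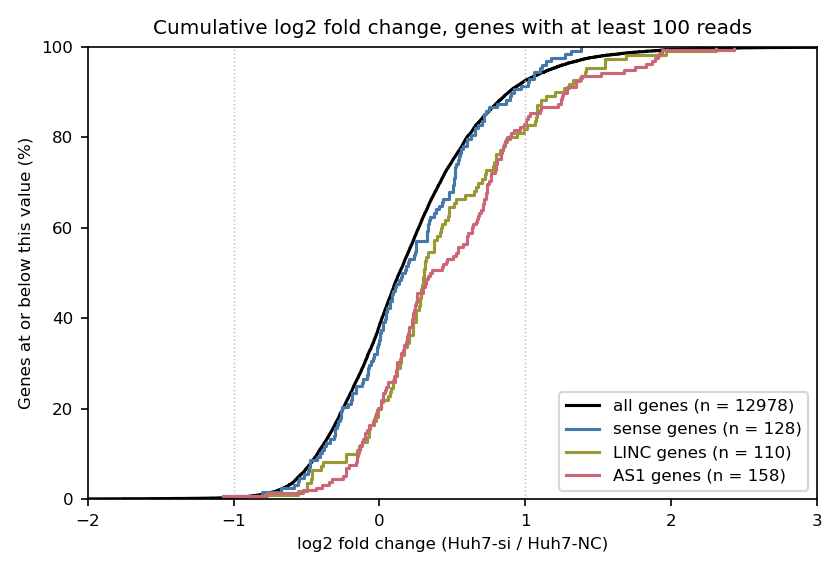
Cumulative share of genes (percent, vertical axis) at or below each log2 fold change of Huh7-si over Huh7-NC (horizontal axis) for all genes, sense genes, LINC genes and AS1 genes with at least 100 reads. The AS1 and LINC lines run to the right of the line of all genes, with medians of 0.35 and 0.31 against 0.14, and the sense genes stay near it at 0.16. Dotted lines mark 2-fold.

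Other noncoding genes were placed beside them. Of 110 expressed genes with LINC symbols, the long intergenic noncoding genes, 20 (18.2%) were at least 2-fold higher and the median was 0.31. Of 168 genes that GENCODE types as antisense but that carry no -AS1 name, 34 (20.2%) were higher and 5 lower, with a median of 0.25. The 6 genes numbered AS2 and above had a median of 0.60. The 11841 protein-coding genes had 713 (6.02%) at least 2-fold higher and a median of 0.11. The values of the AS1 genes were near those of the LINC genes, and no difference between these classes was tested.

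The nuclear exosome and its adaptors, which degrade many antisense and promoter-upstream RNAs, were described as a fixed list of 24 genes. None reached 2-fold in either direction, 11 (45.8%, with 45.9% of all genes) had intervals above no change, 8 (33.3%, with 26.1% of all genes) below and 5 across it, and the median was 0.01. The exosome subunits EXOSC5 and EXOSC4 had log2 fold changes of -0.70 and -0.63, and the exosome cofactor MPHOSPH6 had -0.61. ZFC3H1, which links the exosome to polyadenylated nuclear RNA, had 364 and 667 reads and 0.92, and ZCCHC8, of the nuclear exosome targeting complex, had 0.46. The list therefore held members on either side of no change. Relative to the median of genes of like length, EXOSC5, EXOSC4 and MPHOSPH6 had -0.38, -0.31 and -0.29. ZFC3H1 and ZCCHC8 had 0.485 and 0.20 on that scale, and the median of the list was -0.04. Of 16 genes that bind or process double-stranded RNA, 1 (6.25%, with 7.45% of all genes) was at least 2-fold higher, the Argonaute gene AGO4 with 187 and 426 reads and 1.24, and their median was 0.30. DICER1, the nuclease that cuts microRNA precursors, had 0.67 and ADAR, which edits adenosine in RNA duplexes, had 0.40. Relative to genes of like length AGO4, DICER1 and ADAR had 0.695, -0.01 and -0.04, and 7 of the 16 genes lay above 0. The part of either list in the levels of the antisense genes was not tested.

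**Figure D2:**
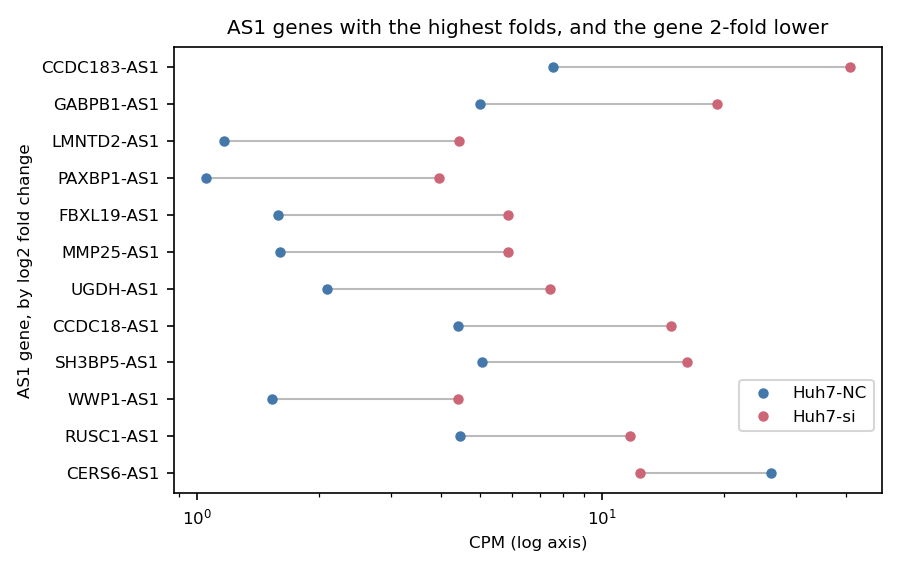
Level in CPM (horizontal log axis) in Huh7-NC and Huh7-si of the 11 AS1 genes with the highest log2 fold change and of the 1 gene at least 2-fold lower, ordered by log2 fold change. The higher genes run from CCDC183-AS1 at 7.57 and 40.8 CPM down to RUSC1-AS1 at 4.45 and 11.7 CPM, and CERS6-AS1 alone is lower in Huh7-si.

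The highest fold belonged to CCDC183-AS1 (ENSG00000228544, minus strand, GRCh38 chr9:136803927-136808848), which runs across part of the gene of a coiled-coil protein. It had 173 reads (7.57 CPM) in the control library and 902 reads (40.8 CPM) after BRF2 siRNA, for a log2 change of 2.43 (2.20 to 2.67). CCDC183 itself had 81.6 and 196 reads and a log2 change of 1.31. The antisense change exceeded the sense change by 1.12 (0.66 to 1.58), so both genes were higher and the antisense gene by more. CCDC183 and ZNF528 were the only pairs of the 128 in which both genes reached 2-fold.

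GABPB1-AS1 (ENSG00000244879, plus strand, chr15:50354959-50372202) came next. It starts head-to-head with GABPB1, which codes for the beta subunit of the ETS factor GABP, a regulator of nuclear genes for mitochondrial proteins. The antisense gene had 114 and 423 reads, a log2 change of 1.94 (1.64 to 2.25), while GABPB1 had 887 and 847 reads and -0.02. Long genes had higher folds in these libraries, and relative to genes of like length the value for GABPB1-AS1 was 1.26, and by TPM 1.19.

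UGDH-AS1 (ENSG00000249348, plus strand, chr4:39528019-39594707) starts 292 bases from UGDH, which makes the UDP-glucuronic acid used for glucuronidation in liver. It had 47.7 and 164 reads, a log2 change of 1.83 (1.35 to 2.32). The sense gene, at 3951 and 3834 reads, had 0.01, and the pair differed by 1.82 (1.34 to 2.32). FBXL19-AS1, head-to-head with the gene of an F-box protein, showed the same arrangement of values, with 36.1 and 129 reads and 1.89 (1.35 to 2.47) against 0.18 for FBXL19. In these 3 head-to-head pairs the antisense gene was higher while the sense gene, with many more reads, hardly moved. UGDH-AS1 and FBXL19-AS1 had under 50 reads in Huh7-NC and passed the threshold through Huh7-si, the library where they were high.

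Further genes of the largest folds had fewer reads and wide intervals. LMNTD2-AS1 had 26.6 and 97.5 reads and a log2 change of 1.92 (1.28 to 2.58). PAXBP1-AS1, opposite the gene of a PAX-binding protein, had 24.0 and 87.3 reads and 1.91 (1.24 to 2.62), with 0.81 for PAXBP1. WWP1-AS1, opposite the gene of a HECT-type ubiquitin ligase, had 35.0 and 97.0 reads and 1.52 (0.95 to 2.12), with 0.20 for WWP1. Their reads in Huh7-NC were under 50, as were those of UGDH-AS1, FBXL19-AS1 and MMP25-AS1, so the size of the fold is known less well for all of these.

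MMP25-AS1 is opposite the gene of a membrane-anchored matrix metalloproteinase that was nearly silent, at 2.37 and 6.61 reads. The antisense gene had 36.6 and 130 reads and a log2 change of 1.87 (1.33 to 2.43). CCDC18-AS1, better covered, had 100.5 and 327 reads and 1.75 (1.43 to 2.10), with 0.51 for the coiled-coil gene CCDC18. RUSC1-AS1 had 102 and 258 reads and 1.39 (1.05 to 1.73), while RUSC1, an adaptor gene, had 0.00. The intervals of these 3 lay wholly past 2-fold, as did those of 12 of the 27 in all.

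In several pairs the sense gene was lower where the antisense gene was higher. SH3BP5-AS1 (plus strand, chr3:15254184-15264493) had 115 and 357 reads and 1.68 (1.38 to 2.00), and SH3BP5, an exchange factor for RAB11 that also binds the kinase BTK, had 115 and 80.2 reads and -0.48. The difference of 2.16 (1.62 to 2.69) was the widest of all pairs. TMEM147-AS1 had 149 and 366 reads and 1.35 (1.07 to 1.63), against 2765 and 2159 reads and -0.31 for TMEM147, a membrane protein of the endoplasmic reticulum translocon. Relative to genes of like length SH3BP5 had -0.60 and TMEM147, a short gene, 0.01.

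Further genes with a 2-fold higher level had log2 fold changes between 1.0 and 1.35, among them C1RL-AS1, ZNF528-AS1, SLC25A25-AS1, PPP3CB-AS1, PPM1F-AS1, ZEB1-AS1, ADGRL1-AS1, MCM3AP-AS1, BCAN-AS1, PCBP1-AS1, RBM26-AS1, RTCA-AS1 and ARHGEF35-AS1. Of these ZNF528-AS1, PPP3CB-AS1, ZEB1-AS1, ADGRL1-AS1 and RBM26-AS1 had under 50 reads in Huh7-NC and passed the threshold through Huh7-si. Values from 1.0 to 1.11 fall below 2-fold with TMM, median-of-ratios and upper-quartile scaling. ZEB1-AS1, which shares its start region with the gene of the mesenchymal repressor ZEB1, had 38.0 and 87.0 reads, with 1.24 against 0.66 for ZEB1. ZNF528-AS1 had 47.0 and 111 reads, and its value of 1.29 stood beside 1.14 for the zinc finger gene ZNF528. By the authors' TPM 25 of the 27 were also at least 2-fold higher. Relative to genes of like length, 19 of the 27 kept a log2 value of at least 1, with a lowest value of 0.46 and a median of 1.14.

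**Figure D3:**
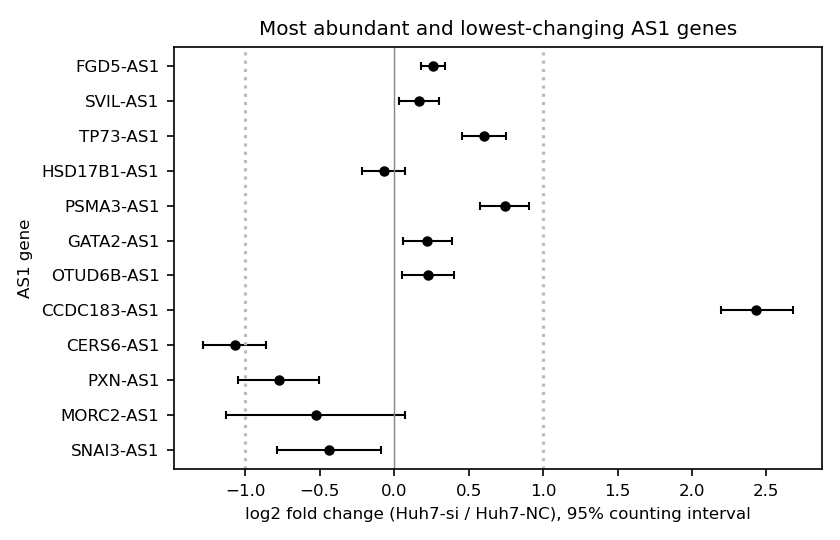
Log2 fold change of Huh7-si over Huh7-NC (horizontal axis) with its 95% counting interval for the 8 most abundant AS1 genes, from FGD5-AS1 to CCDC183-AS1, and for the 4 with the lowest values, from CERS6-AS1 to SNAI3-AS1. FGD5-AS1 has the narrowest interval, 0.18 to 0.34, and the interval of MORC2-AS1 spans no change.

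Of the 8 most abundant antisense genes, CCDC183-AS1 alone reached 2-fold, and the other values lay between -0.07 and 0.74. FGD5-AS1 (minus strand, chr3:14920347-14948424), named for an endothelial exchange factor of CDC42, had 2168 and 2510 reads (94.9 and 114 CPM), a log2 change of 0.26 (0.18 to 0.34), and FGD5 itself had 0 and 1 read. With TMM, median-of-ratios and upper-quartile scaling the value for FGD5-AS1 was 0.04, 0.05 and 0.07, and relative to genes of like length 0.05. TP73-AS1, opposite the gene of the p53 relative p73, had 642 and 943 reads and 0.60 (0.46 to 0.75). PSMA3-AS1, opposite a subunit gene of the proteasome core, had 497 and 802 reads and 0.74 (0.58 to 0.90). PSMA3 had 4215 and 2909 reads and -0.49, so this abundant pair also went apart, by 1.23 (1.05 to 1.40).

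Other small values changed sign with the scaling or the length reference. SVIL-AS1, opposite the gene of the actin-binding protein supervillin, had 862 and 935 reads and a log2 change of 0.17 (0.03 to 0.30), which became -0.06, -0.04 and -0.02 with TMM, median-of-ratios and upper-quartile scaling. GATA2-AS1 had 574 and 647 reads and 0.22, which became -0.0029 with TMM. OTUD6B-AS1, opposite a deubiquitinase gene, had 511 and 577 reads and 0.22, which became -0.19 relative to genes of like length. No direction can be given for these 3 genes. HSD17B1-AS1, opposite the gene of the enzyme that makes estradiol from estrone, had 806 and 741 reads and -0.07 (-0.22 to 0.07), an interval that spans no change.

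Lower levels in Huh7-si were rare, with intervals wholly below no change for CERS6-AS1, PXN-AS1, SNAI3-AS1 and SDCBP2-AS1. CERS6-AS1 (ENSG00000227617, minus strand, chr2:168771953-168786961) had 595 and 274 reads (26.0 and 12.4 CPM), a log2 change of -1.07 (-1.28 to -0.86). CERS6, the gene of a ceramide synthase, had 706 and 859 reads and 0.33, and the pair differed by -1.40 (-1.66 to -1.15), the lowest difference of all. In this gene 69.7% of the exonic bases are overlapped by exons of the opposite strand. PXN-AS1 (plus strand, chr12:120201291-120213138), opposite the gene of the focal adhesion adaptor paxillin, had 310 and 175 reads and -0.78 (-1.05 to -0.50), with 0.24 for PXN. SNAI3-AS1 had 168 and 120 reads and -0.44 (-0.79 to -0.09), opposite a gene of the Snail family at 14 and 4 reads. MORC2-AS1 had 61.5 and 41.2 reads and -0.53 (-1.13 to 0.07).

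The sense genes were next compared pair by pair. Each of the 158 sense genes was found in the table, and 128 had at least 100 reads. In these 128 pairs the antisense genes had a median log2 fold change of 0.45 and the sense genes 0.16, and the median difference within a pair was 0.21. The interval of that difference lay above 0 in 53 pairs, below 0 in 21 and across 0 in 54. Of the 128 sense genes, 11 (8.59%, beside 7.45% of all genes) were at least 2-fold higher and 0 were 2-fold lower. Sense genes as a whole thus stayed near the background of all genes. Their median turned negative with other scalings, at -0.06 with TMM, while scaling cancels by construction in the difference within a pair. The antisense TPM was below the sense TPM in 100 of the 128 pairs in each library. Among all genes the median log2 fold change fell with reads, from 0.39 in the lowest range above to 0.12 in the highest. The part of level in the pair difference was not tested.

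No clear relation was seen between the change of the antisense gene and that of the sense gene. Across the 128 pairs Pearson's r was 0.10 and Spearman's rho 0.07, or 0.17 and 0.10 after taking out the value of genes of like length. These are descriptions across genes of the same 2 libraries, in which the pairs share depth and may share reads. In 36 pairs both intervals lay above no change, in 17 the antisense gene was higher and the sense gene lower, in 2 the reverse held, and in 0 were both lower. In 19 pairs the antisense gene was higher with a sense interval that spanned no change, and in 27 only the sense gene was higher. For the 25 pairs whose antisense gene was at least 2-fold higher, the sense interval was above no change in 13, below in 5 and across in 7, with a sense median of 0.15. Of all 128 sense genes 50.8% had intervals above and 23.4% below no change (45.9% and 26.1% of all genes). The sense genes of these 25 pairs were thus near the sense genes as a whole.

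**Figure D4:**
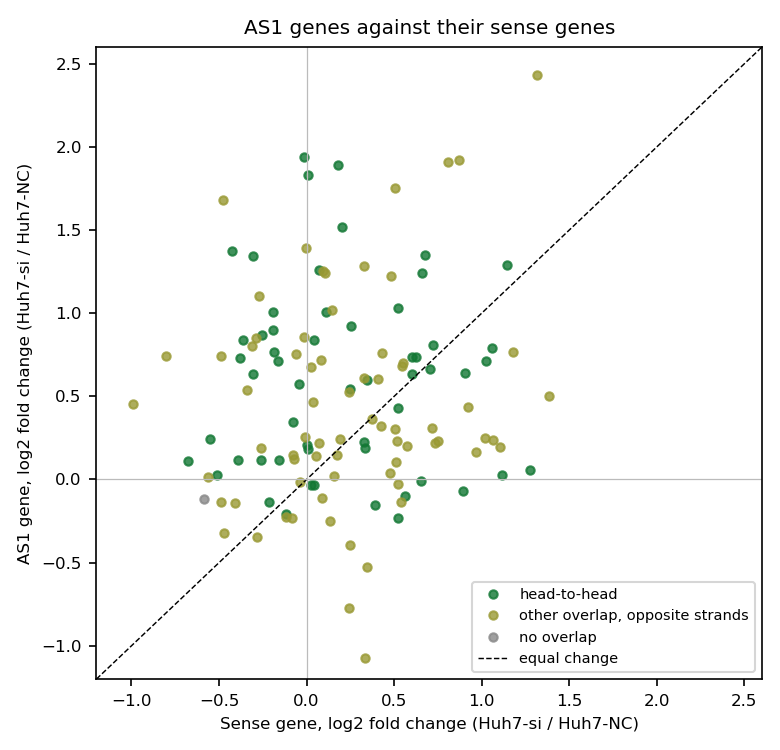
Log2 fold change of the antisense gene (vertical axis) against that of its sense gene (horizontal axis), Huh7-si over Huh7-NC, for 128 pairs, with the dashed line at equal change and colours for the arrangement of the pair. Points lie on both sides of the line without a trend, Spearman's rho being 0.07, and CCDC183-AS1 lies highest at 2.43.

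Of the 128 sense genes, 30 (23.4%, with 26.1% of all genes) had intervals wholly below no change. In 17 of these 30 pairs the antisense interval lay above no change, and in 13 it spanned no change. A lower sense gene was thus not particular to pairs with a higher antisense gene. The 17 pairs covered diverse functions. Beside SH3BP5, TMEM147 and PSMA3 they held the RNA-binding protein gene PCBP1 (1.10 for the antisense and -0.27 for the sense gene), the RNA cyclase gene RTCA (1.0 and -0.19), the differentiation inhibitor gene ID2 (0.85 and -0.29), the gene TPT1 of the translationally controlled tumour protein (0.84 and -0.36) and the RNA-binding protein gene RALY (0.73 and -0.38). The receptor-modifying gene RAMP2 had the lowest sense value, -0.81, with 0.74 for RAMP2-AS1. The proteasome chaperone gene PSMG3 had -0.55 with 0.25 for its antisense gene. Relative to genes of like length PSMG3 had -0.23 and PSMG3-AS1 -0.17, a difference of 0.06, so this pair did not go apart on that scale. TMEM9B, STX18, NINJ2, EIF1B, STARD7 and THAP7 were also in the set, with antisense values from 0.63 to 0.90 and sense values from -0.16 to -0.31. Subunits or chaperones of the proteasome thus appear among them for 2 genes, which were noticed after the values were seen. Relative to genes of like length the sense genes TMEM147, ID2, NINJ2 and EIF1B had 0.01, 0.05, 0.01 and 0.13. The other sense genes of the set stayed below 0, from -0.04 for RTCA to -0.82 for RALY.

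The reverse, a sense gene that was higher beside an antisense gene near no change, was widest in the following pairs. SATB1, a chromatin organiser, had 209 and 489 reads and a log2 change of 1.28, while SATB1-AS1 had 143 and 144 reads and 0.06, a difference of -1.22 (-1.64 to -0.79). EGFR had 1787 and 3716 reads and 1.11, and EGFR-AS1 had 360 and 398 reads and 0.19 (-0.02 to 0.40), a difference of -0.91 (-1.14 to -0.69). The ephrin receptor gene EPHA5 had 67.4 and 141 reads and 1.11, while EPHA5-AS1 had 102 and 99.9 reads and 0.02. For EPHA5-AS1 the TPM went from 31.1 to 6.23, a log2 change of -2.32, so its reads and TPM disagree. TRIM52-AS1 had 186 and 171 reads and -0.07, with 0.90 for TRIM52. Relative to genes of like length, EGFR had 0.43 and EPHA5 0.57, and their pair differences shrank to -0.34 and -0.33. The differences of the SATB1 and TRIM52 pairs were -1.06 and -0.97 on that scale.

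Antisense genes were mostly weaker than their sense genes. Per length, the TPM of the antisense gene was below that of the sense gene in 100 of 128 pairs in Huh7-NC and in 100 in Huh7-si. The median antisense TPM was 23.6% of the sense TPM in Huh7-NC and 28.5% in Huh7-si. Their lengths were alike, with medians of 3537.5 and 3584.5 bases. The sense genes of the other 30 members had at most 89.14 reads, 14 of them under 10, and FGD5-AS1 and MMP25-AS1 belong here. These 30 antisense genes had a median log2 fold change of 0.28, with 16 intervals above and 1 below no change (45.9% and 26.1% of all genes). Among them 2 were at least 2-fold higher, MMP25-AS1 and BCAN-AS1, a share near the 7.45% of all genes.

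The position of the antisense gene was taken from GENCODE release 29. Its start lay within 2000 bases of the sense start on the opposite strand, head-to-head, for 59 genes. Of these, 14 (23.7%) were at least 2-fold higher, 39 intervals lay above no change and 0 below, and the median log2 fold change was 0.64. The 98 other genes that overlap the sense gene on the opposite strand had 13 (13.3%) at least 2-fold higher, 49 intervals above and 4 below, and a median of 0.28. LYRM4-AS1 belonged to neither set. The difference between the sets was of the same direction relative to genes of like length, with medians of 0.40 and 0.15, and was not tested.

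Sense genes did not show that order. Their median was 0.09 in 56 head-to-head pairs and 0.19 in 71 other overlapping pairs, with 5 and 6 genes at least 2-fold higher. The median difference within a pair was 0.34 head-to-head and 0.15 in the others. Spearman's rho between antisense and sense change was -0.01 and 0.11, and at these read numbers such weak correlations are no finding.

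By gene type, GENCODE calls 111 of the members antisense, 24 processed transcripts, 17 lincRNA, 2 protein coding (KRT10-AS1 and DIP2C-AS1), 3 transcribed pseudogenes and 1 a bidirectional promoter RNA (LIMD1-AS1). The median log2 fold change was 0.31 for the antisense type, 0.54 for processed transcripts, which include CERS6-AS1, and 0.63 for lincRNA. The named sense genes include 15 of zinc finger or ZEB type, whose AS1 genes had a median of 0.26, with 7 intervals above (46.7%, near the 45.9% of all genes) and 0 below no change. The 13 zinc finger sense genes with enough reads had a median of 0.55 with 9 above and 1 below.

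Whether the libraries kept strand is not given in the sources used here, so reads from exons that overlap on opposite strands cannot be assigned with certainty to the antisense or the sense gene. Overlap was taken from GENCODE 29 exons, and only with genes that had reads. Of the 158 genes, 25 had no such exon overlap on either strand, and of these 4 (16.0%) were at least 2-fold higher, with a median of 0.23. The other 133 had 23 (17.3%) and 0.43. The overlap was small for most, with a median of 7.6% of exonic bases on the opposite strand. The 15 genes with 50% or more of their bases overlapped, CERS6-AS1 and HSD17B1-AS1 among them, had 0 at least 2-fold higher and a median of 0.02. The 4 genes without exon overlap that were at least 2-fold higher were WWP1-AS1, ZNF528-AS1, BCAN-AS1 and RTCA-AS1. WWP1-AS1 and ZNF528-AS1 had 35.0 and 47.0 reads in Huh7-NC and passed the threshold through Huh7-si. BCAN-AS1 and RTCA-AS1 had log2 fold changes of 1.11 and 1.0, and 0.98 and 0.46 relative to genes of like length. The part of shared reads in the 2-fold differences was not tested. The annotation used for counting is not known and can differ. RTCA-AS1, 1 of the 4, has a deposited length of 7697 bases against 2776 exonic bases in GENCODE 29. For BCAN-AS1, also of the 4, both are 3222. Reads were whole numbers in both libraries for 29 genes, with 3 at least 2-fold higher and a median of 0.19. The 129 genes with fractional estimates had 24 and 0.54, and the part of this estimation was not tested.

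Gene length moved with the fold. Among the 40 shortest antisense genes (533 to 2313 bases) 3 (7.5%) were at least 2-fold higher with a median of 0.13, while all genes of those lengths had 4.4% and -0.15. In the next ranges of length the medians were 0.36 against 0.09, then 0.71 against 0.25. The 40 longest (4894 to 37852 bases) had 22.5% and 0.56, against 14.0% and 0.48 for all genes. The rank correlation (Spearman) of length with log2 change was 0.32 over the 158 genes and 0.50 over all genes, as a description across genes of the same libraries. Relative to the median of genes of like length, the antisense median was 0.26, with 108 of 158 genes above 0, and 20 genes at or above 1. Of all 12978 genes, 6485 lay above 0 and 600 at or above 1 on that scale. The part of length or RNA quality in the difference between the libraries was not tested.

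**Figure D5:**
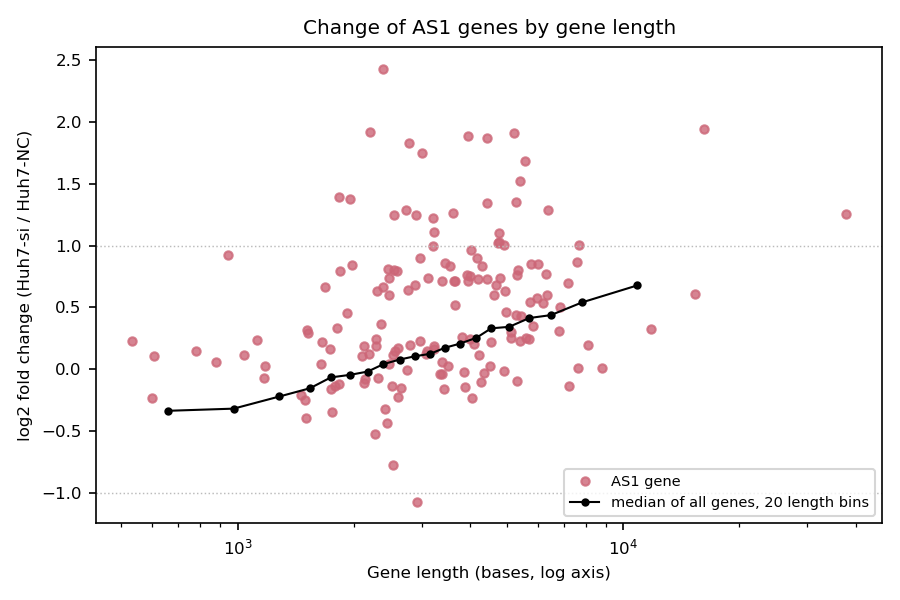
Log2 fold change of Huh7-si over Huh7-NC (vertical axis) against gene length in bases (horizontal log axis) for the 158 AS1 genes as points, with the median of all genes in 20 length bins as a line. The line climbs with length, and more points lie above it (108) than below.

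Promoters in the RefSeq table were found for 127 of the 158 genes, 160 promoters in all. The GC box GGGCGG was present in 61.3% of them and in 45.0% of all 35116 promoters, the ETS core CCGGAA in 31.9% and 17.2%, CCAAT in 30.6% and 34.6%, and TATAAA in 6.9% and 11.5%. The median number of CpG was 26 in the promoters of the antisense genes and 14 in all. These promoters were thus rich in CpG and poor in TATA matches, as were the promoters of the sense genes, with 57.4%, 22.5%, 32.4% and 8.8% for the 4 motifs in the same order.

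Among the genes at least 2-fold higher, 21 had a promoter in the table. Counted by gene, 10 of these 21 (47.6%) held an ETS core, compared with 34 of 106 (32.1%) of the genes without such a fold and 20.1% of all genes with promoters. ZNF528-AS1 holds 3 such cores and CCDC18-AS1 2, in the sequences given above, whereas UGDH-AS1 holds 4 GC boxes and 0 ETS cores. The groups are small, overlapping promoters of a gene share sequence, and the difference was not tested. Head-to-head genes had CCAAT in 20.7% of their promoters and the other overlapping genes in 36.6%, with nearly equal shares of the ETS core, 31.0% and 32.7%.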

How the data were processed

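RNA-seq was done on Huh7-NC and Huh7-si cells, with 1 library each. Per the submitters' processing notes the authors used Bowtie2 2.0.6 and TopHat2 2.0.12 with build GRCh37. The counting tool, annotation and strandedness are not given in the sources used here. The authors deposited 1 table of genes with estimated counts, not scaled to library size, and with TPM scaled by length. The authors' own comparison columns, deposited as fold (ratio), log2 fold and p-values with and without adjustment, were not used. Every column with values of a library was used.

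From the estimated counts, CPM and their ratio were computed here, and counts were rounded to whole numbers for the 95% Clopper-Pearson intervals and for the exact conditional interval of the difference within a pair. Called means at least 2-fold by CPM, since 1 library per condition allows no test. Genes of like length are those of the same of 20 length bins. GENCODE release 29 (GRCh38) holds 94.8% of the gene identifiers and gave types and positions, and RefSeq (GRCh38.p14) gave promoters. Positions are therefore on GRCh38, not on the build of the notes.

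Named genes were BRF2, the genes past 2-fold (the 12 with the largest change where more), the 8 most abundant, the 4 lowest, the 6 widest pair differences each way, their sense genes and the neighbours of the threshold. Some genes of this rule are counted but not reported here by name. Other genes, named as members of a count, a list or a set of pairs, were picked with their values seen. The members and lists were chosen with earlier results of these data known. Alternatives were the scaling (edgeR 4.0.16 and DESeq2 1.42.0 in R 4.3.3, for scale factors alone), TPM, a pseudocount of 0.5 reads, like-length values, other read minimums, a fold of 1.5 and the interval. The Python (3.11.15) packages were SciPy 1.17.1, pandas 2.3.3, matplotlib 3.10.9 and NumPy 2.4.6, and the interval code was tested on simulated data.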

Additional observations from a re-analysis of the deposited data

How the results depend on the processing

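The count of AS1 genes at least 2-fold higher, 27, became 21 with TMM, median-of-ratios and upper-quartile scaling, 39 with TPM, 26 with a pseudocount and 20 relative to genes of like length. It moved to 69 with a fold of 1.5, 47 with at least 50 reads, 15 with at least 200 reads, and 12 where the whole interval had to pass the fold. Of these settings only like length has a count for all genes here, 600 of 12978. The median of all genes went from 0.14 by CPM to 0.33 by TPM, so the background moves with the setting too. The counts alone therefore do not compare the AS1 genes with all genes. The count of 2-fold lower genes, 1, became 2 with TPM, 2 with a fold of 1.5 and 0 with the whole interval. The median log2 fold change of the AS1 genes, 0.35, became 0.13, 0.15 and 0.17 with TMM, median-of-ratios and upper-quartile scaling and 0.52 with TPM. That of the sense genes, 0.16, became -0.06, -0.04 and -0.02 with these scalings, -0.02 relative to genes of like length and 0.33 with TPM. The median pair difference, 0.21, became 0.36 with TPM and was 0.15 in the 24 pairs without exon overlap. BRF2, at -1.77, became -1.99, -1.97, -1.95 and -1.59 with the scalings and TPM in that order. Of 174 values of 29 single genes under these alternatives, 156 kept their sign and 18, from 8 genes, did not. Among genes whose interval excluded no change these were SVIL-AS1 (-0.06, -0.04 and -0.02 with the 3 scalings), GATA2-AS1 (-0.0029 with TMM) and OTUD6B-AS1 (-0.19 relative to genes of like length). The other 5, whose intervals span no change, were SATB1-AS1 (down to -0.17), EPHA5-AS1 (down to -2.32, with TPM), EGFR-AS1 (down to -0.03), TRIM52-AS1 (up to 0.15) and HSD17B1-AS1 (0.11 with TPM). The cause of these changes was not tested beyond the shift that each scaling makes by construction. No paired analysis was possible because each condition had 1 library. Leaving out a library was not possible for the same reason. Depth limits the genes under 50 reads most, whose intervals span about 1 log2 unit or more.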
